A study of Homo sapiens with 6 samples.

Results

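NT5E encodes CD73, the cell surface enzyme that turns extracellular AMP into adenosine, and it was examined here together with the genes that act before and after it. The 9 genes were NT5E and ENTPD1 (adenosine production), ADORA1, ADORA2A and ADORA2B (adenosine receptors), ADA and ADK (adenosine breakdown and recycling), and SLC29A1 and SLC29A2 (adenosine transport across the membrane). NT5E was chosen by its measured change, a fall after HOTAIRM1 knock-down that was already known from these libraries, and the other 8 genes were added by function. They are 9 of the 59074 genes listed, and 7 of them averaged at least 1 CPM (read counts scaled to the depth of each library) over the libraries, as did 14294 genes in all, which were tested. ENTPD1 and ADORA2A lay below that level and were not tested, so they are given as levels, ratios and changes alone.

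The study transfected established glioblastoma cell lines with siPOOLs, which are pools of many different siRNAs, and compared a pool against the long non-coding RNA HOTAIRM1 (siHOTAIRM1) with a non-target pool (siControl). RNA was taken 72 h later from LN-229, T98G and U251 cells, with 1 library for each cell line and condition, so 6 libraries in all. The titles of the LN-229 samples spell the line LNT229. The knock-down is transient and, as measured in these libraries, partial. A cell line stands for 1 tumour, and the only replicates of the knock-down are the 3 cell lines. In a bulk library, less RNA per cell and fewer cells with that RNA cannot be told apart.

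Cells release ATP, and ENTPD1 (CD39) on the cell surface cuts ATP and ADP down to AMP, from which CD73 makes adenosine. Adenosine acts on G protein-coupled receptors: ADORA1 lowers cAMP inside the cell, whereas ADORA2A and ADORA2B raise it. The equilibrative transporters SLC29A1 and SLC29A2 carry adenosine into the cell, where ADK phosphorylates it to AMP or ADA deaminates it to inosine. Adenosine in the tumour surroundings is known for damping immune cells, and CD73 is abundant in many glioblastomas.

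The promoters of 7 of the 9 genes were matched in a RefSeq table (GRCh38.p14) that holds 250 bases before and 50 bases after each start of transcription. They were searched on both strands for TGACGT, the core of the cAMP response element, for ACGTG, the core of the hypoxia response element, and for TGANTCA, the AP-1 motif. These motifs are shown because adenosine receptors act through cAMP and because hypoxia is a known inducer of this pathway. The promoters of NT5E and SLC29A1 held a match, in capitals, and no other match was found in the windows of these genes.
NT5E, chr6:85449947-85449970, plus strand: cggatcgggTGACGTcgcgaactt
SLC29A1, chr6:44219365-44219388, plus strand: cagtgcACGTGctcccaggtctca
The match in NT5E begins at position -127 from the RefSeq start, and this stretch lies in the 5' UTR of a longer transcript in GENCODE v44. The match in SLC29A1 begins at position -244. The same letters read on the other strand overlap it and count as the same place. Of 35116 promoters in the table, 7.98% held TGACGT, 21.4% held ACGTG and 7.71% held TGANTCA. A match is a stretch of letters and is no evidence of binding.

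The microRNA miR-17-5p is shown because the study examined it as a microRNA that may bind HOTAIRM1. Its seed, bases 2 to 8, is in capitals in the RefSeq sequence from chr13:91350618-91350640 (GRCh38.p14).
miR-17-5p: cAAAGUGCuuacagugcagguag
The complement of the seed, GCACTTT, was found in the 3' UTR of the canonical transcript of 1 of the 9 genes, SLC29A2, at base 596 of 915.
SLC29A2 site: gtgtgtactGCACTTTacagtttgc
The 1780 bases of the NT5E 3' UTR held none. Of 11166 genes with a 3' UTR searched, 26.3% held at least 1 such site.

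HOTAIRM1, a transcript of chromosome 7 (27095647 to 27100265, plus strand, hg38), was measured at 1.99 CPM in LN-229 siControl cells and 0.952 CPM after siHOTAIRM1. In T98G it was 3.49 and 2.15 CPM, and in U251 1.27 and 0.623 CPM. The targeted RNA was therefore lower in each siHOTAIRM1 library than in its siControl: it fell by 52.2% in LN-229, it fell by 38.5% in T98G, and in U251 it fell by 51.1% (mean -0.54, SE 0.12 on the log2(CPM + 1) scale, adjusted p = 0.0146, limma with Benjamini-Hochberg adjustment over 14294 genes). Relative to the median gene of T98G, the change of HOTAIRM1 there was -0.32, where it was -0.51 before. By RT-qPCR the study reported a stronger fall of HOTAIRM1 in each of these lines than these libraries show. The difference between these measures was not tested. Depth was 52.3 to 104 M reads per library, so that 3 reads, taken as the limit of detection, were 0.0289 to 0.0574 CPM. Of 6 glioma markers, VIM was at 254 to 1794 CPM in every library, but NES (0.956 and 0.866 CPM), SOX2 (0.0146 CPM and 0 reads), GFAP (0.0435 and 0.0551 CPM) and S100B (0 reads in both) were at or near the detection limit or low in the T98G libraries. GFAP was also low in LN-229 (0.317 and 0.298 CPM). OLIG2 was at 1.43 and 1.69 CPM in LN-229, 0.956 and 0.578 CPM in T98G, and 0.0575 CPM and 0 reads in U251. The summed level of the 5 immune markers was 0.581 to 8.09 CPM per library, most of it CD68 in T98G, with PTPRC at no more than 0.0870 CPM. The 4 endothelial markers summed to 0.408 to 3.08 CPM, and CLDN5 had 0 reads in every library. In T98G the median change of all tested genes was -0.19 on the log2(CPM + 1) scale, against 0.01 in LN-229 and -0.03 in U251, so changes in T98G are also given relative to that median. The U251 siControl library differed in make-up: protein-coding genes held 67.5% of its listed CPM, against 75.4 to 77.1% in the other libraries. Its depth was 52.3 M reads, against 101 M in U251 siHOTAIRM1. Changes in U251 therefore depend on the scaling too.

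NT5E (chr6:85449584-85495791, plus strand, 9 exons in the canonical transcript, GENCODE v44) was lower after knock-down in each cell line. LN-229 cells held 193.7 CPM in siControl and 126.5 CPM in siHOTAIRM1. T98G cells went from 55.1 to 17.4 CPM, and U251 cells from 49.2 to 17.2 CPM. Both LN-229 libraries lay above all others, and within T98G and U251 the siControl library lay above the siHOTAIRM1 library of either line. The ratio of siHOTAIRM1 to siControl was 0.653 in LN-229 (95% interval for counting error 0.638 to 0.668), 0.316 in T98G (0.297 to 0.337) and 0.349 in U251 (0.328 to 0.371). NT5E fell by 34.7% in LN-229, fell by 68.4% in T98G and fell by 65.1% in U251. The intervals of T98G and U251 were both far from that of LN-229, but with 1 library per condition a difference between lines has no replicate check.

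**Figure D1:**
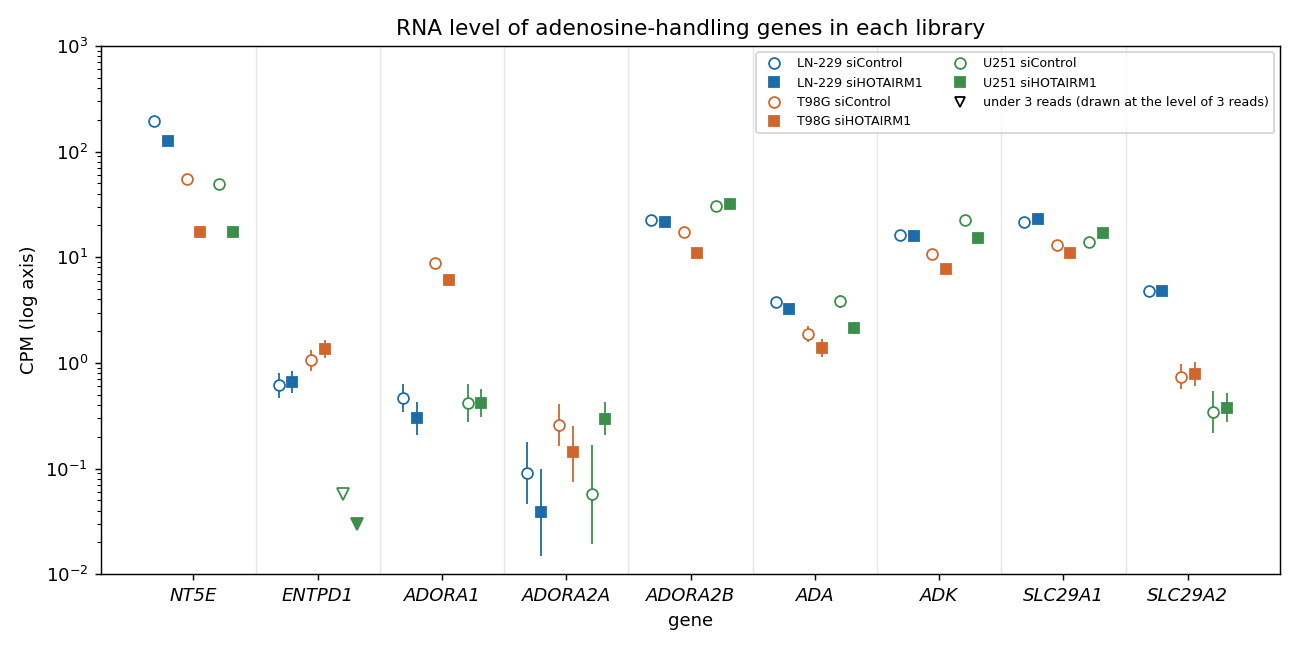
CPM of the 9 genes in each of the 6 libraries on a log axis, with open circles for siControl, filled squares for siHOTAIRM1, bars for the 95% counting interval and triangles at the level of 3 reads for libraries with fewer. NT5E falls in each line, from 193.7 to 126.5 CPM in LN-229, 55.1 to 17.4 in T98G and 49.2 to 17.2 in U251.

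On the log2(CPM + 1) scale the changes of NT5E were -0.61, -1.61 and -1.47 in LN-229, T98G and U251, with a mean of -1.23 ± 0.54 (SD, n = 3 cell lines). Among the 14294 tested genes, counted from the strongest fall, NT5E stood at places 75, 5 and 27 in LN-229, T98G and U251, and at place 3 for the mean of the lines. The change was -0.62, -1.42 and -1.44 when each line was centred on its median gene, and -0.63, -1.36 and -1.36 when libraries were scaled to their protein-coding genes. The fall of NT5E thus held its direction in the 3 lines under either scaling. Because this contrast chose NT5E, these values describe it and no test is attached.

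By CPM, not divided by transcript length, NT5E was among the highest genes of LN-229, where it ranked 262 of 14294 genes in siControl and 549 in siHOTAIRM1. In T98G its rank moved from 1819 to 4913, and in U251 from 2601 to 6015. NT5E left the upper ranks of T98G and U251 but not of LN-229.

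The fit over all genes placed 286 of 14294 genes past an adjusted p of 0.05 on knock-down, 2.0% of the genes tested (1.59% lower, 0.413% higher), and 1 of the 7 tested genes of adenosine handling, NT5E, was among them. Since the rule used this contrast, nothing is read from that count. In limma 0 genes passed without the T98G libraries (1206 at an unadjusted p under 0.05), and 0 after scaling to protein-coding genes (2576), so the calls of NT5E and HOTAIRM1 were lost there. Within single lines, 1 of the 7 genes was lower by at least 0.5 in LN-229 (NT5E), where 0.993% of all genes were. In T98G the genes were NT5E and ADORA2B, where 8.26% of all genes were that much lower. In U251 they were NT5E, ADA and ADK, against 11.9% of all genes. None of the 7 was higher by 0.5 in any line (background 1.47%, 0.644% and 6.56%). After centring on the median gene, ADORA2B no longer passed in T98G (-0.42, background 1.85%), and after scaling to protein-coding genes ADK no longer passed in U251 (-0.43, background 8.05%) and ADORA2B no longer passed in T98G (-0.37, background 1.53%). None of the 7 was higher by 0.5 after centring (background 1.42%, 2.26% and 7.54% in LN-229, T98G and U251) or after scaling (1.43%, 2.77% and 9.56%). NT5E, ADORA1, ADA and ADK were lower in all 3 lines, where 28.1% of all genes were. NT5E, which this contrast chose, enters each of these counts of lower genes, so nothing is read from them either. For ADORA1 the U251 change was -0.01, and it was 0.02 under either other scaling.

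**Figure D2:**
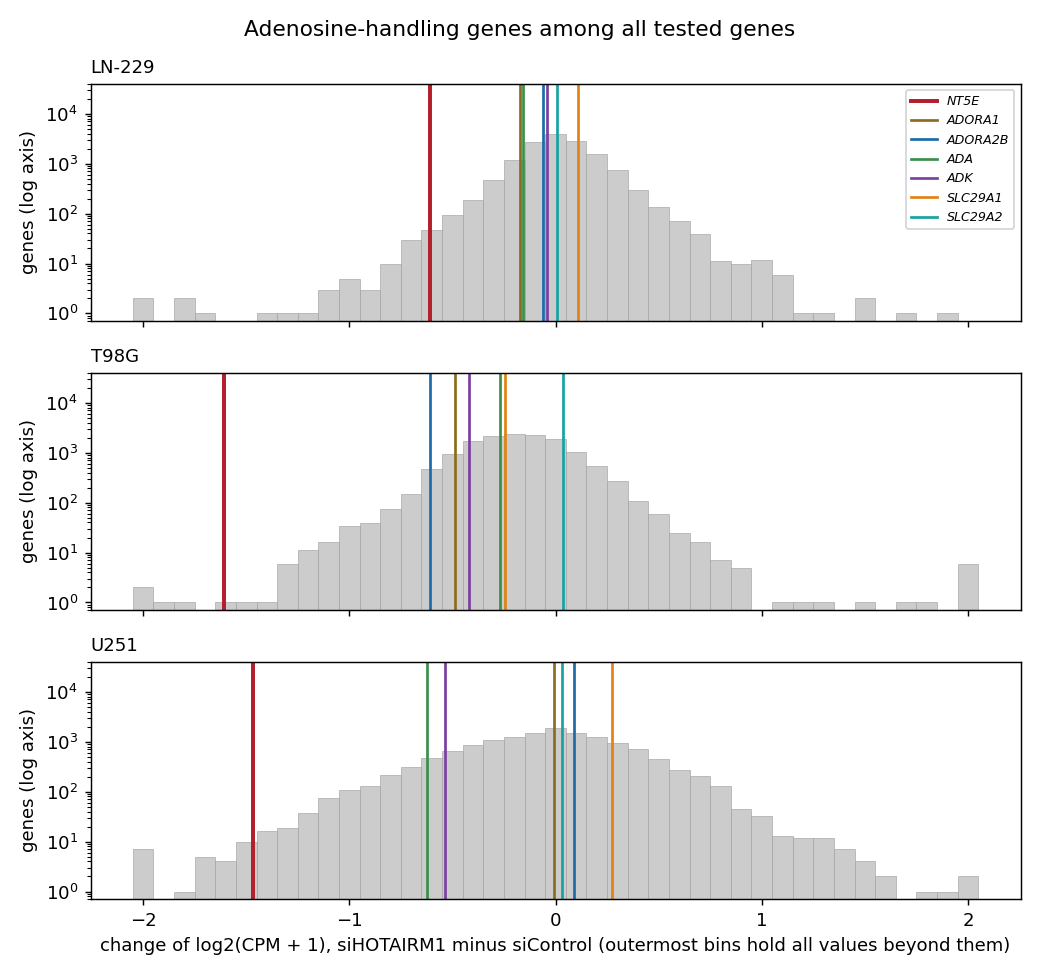
Number of tested genes (log axis) by change of log2(CPM + 1), siHOTAIRM1 minus siControl, in each cell line, with a vertical line for each of the 7 tested genes of adenosine handling. NT5E lies in the lower tail in each line (-0.61, -1.61 and -1.47), whereas the other 6 genes lie between -0.62 and 0.27.

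ENTPD1, the surface enzyme that supplies CD73 with AMP, was scarce in each line. It was measured at 0.612 and 0.664 CPM in LN-229 (siControl, then siHOTAIRM1) and at 1.06 and 1.35 CPM in T98G. In U251 it had 1 read in siControl and 0 reads in siHOTAIRM1, where 3 reads would be 0.0296 CPM. The ratio of siHOTAIRM1 to siControl was 1.09 (0.760 to 1.55) in LN-229 and 1.28 (0.947 to 1.73) in T98G, so in CPM neither line showed a change beyond counting error. Relative to the median gene, the T98G change of log2(CPM + 1) was 0.38 where it was 0.20 before, and no interval was computed for it. The exons of ENTPD1 share 5742 of 14344 bases with the antisense gene ENTPD1-AS1, which was measured at 2.27 to 4.25 CPM. The TruSeq v2 kit does not mark strand, so reads in the shared bases cannot be told apart.

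ADORA2B, the receptor that raises cAMP at high adenosine, was measured at 22.3 and 21.4 CPM in LN-229, 17.2 and 10.97 CPM in T98G, and 30.2 and 32.2 CPM in U251. It was lower after knock-down in T98G, with a ratio of 0.636 (0.582 to 0.696), against 0.957 (0.901 to 1.02) in LN-229 and 1.07 (1.003 to 1.13) in U251. The changes of log2(CPM + 1) were -0.06, -0.61 and 0.09 in LN-229, T98G and U251, with a mean of -0.19 ± 0.37 (SD, n = 3). Relative to the median gene of T98G the change there was -0.42.

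ADORA1, the receptor that lowers cAMP, separated the cell lines rather than the conditions. Its levels were 8.88 and 6.05 CPM in T98G, 0.465 and 0.298 CPM in LN-229, and 0.421 and 0.415 CPM in U251. Both T98G libraries lay above all others. The ratio of siHOTAIRM1 to siControl was 0.682 (0.603 to 0.770) in T98G, 0.642 (0.403 to 1.02) in LN-229 and 0.986 (0.588 to 1.65) in U251, so the interval left out 1 in T98G and included it in the other 2 lines. Relative to the median gene, the T98G change of log2(CPM + 1) was -0.30 where it was -0.49 before.

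ADORA2A, the other receptor that raises cAMP, was close to the detection limit. It was measured at 0.0907 and 0.0386 CPM in LN-229, 0.260 and 0.143 CPM in T98G, and 0.0577 and 0.295 CPM in U251. The U251 ratio was 5.11 (1.56 to 16.7) and rested on 3 reads in siControl. In LN-229 and T98G the ratios were 0.425 (0.128 to 1.41) and 0.549 (0.256 to 1.18), with 1 inside both intervals. ADORA2A shares 2380 of its 4190 exon bases with the read-through gene SPECC1L-ADORA2A, which was measured at 0.515 CPM in U251 siControl and 1.55 CPM in U251 siHOTAIRM1. How the Expectation-Maximization step split reads between them was not tested.

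ADK, which returns adenosine to AMP, and ADA, which deaminates it, were each lower after knock-down in 3 of 3 lines. ADK was measured at 16.4 and 15.9 CPM in LN-229, 10.7 and 7.77 CPM in T98G, and 22.5 and 15.2 CPM in U251. Its ratio was 0.969 (0.903 to 1.04), 0.725 (0.649 to 0.808) and 0.677 (0.627 to 0.730) in the same order. The mean change of log2(CPM + 1) was -0.33 ± 0.26 (SD, n = 3). In LN-229 the ADK interval included 1, and in T98G and U251 it did not.

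ADA was measured at 3.74 and 3.24 CPM in LN-229, 1.88 and 1.39 CPM in T98G, and 3.83 and 2.13 CPM in U251. Its ratio was 0.867 (0.745 to 1.01), 0.738 (0.569 to 0.957) and 0.558 (0.460 to 0.676), and its mean change was -0.35 ± 0.24 (SD, n = 3). Relative to the median gene the ADA change was -0.17, -0.08 and -0.60, and that of ADK -0.05, -0.23 and -0.51. The T98G value of ADA was thus within 0.1 of the median gene, whereas the U251 values of both enzymes were well below it. Exons of ADA and PKIG, on opposite strands, share 853 bases.

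SLC29A1 (ENT1), the main transporter of adenosine in most cells, was measured at 21.5 and 23.2 CPM in LN-229, 13.1 and 10.9 CPM in T98G, and 13.8 and 16.9 CPM in U251. The ratio was 1.08 (1.02 to 1.15), 0.833 (0.758 to 0.917) and 1.22 (1.12 to 1.33), so the lines differed in direction. Relative to the median gene the changes were 0.10, -0.05 and 0.30, and after scaling to protein-coding genes 0.09, -0.00 and 0.37. The T98G change of -0.24 was thus close to the shift of the whole library.

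SLC29A2 (ENT2), the second equilibrative transporter, differed by 0.01 to 0.04 between siControl and siHOTAIRM1 on the log2(CPM + 1) scale. It was measured at 4.76 and 4.79 CPM in LN-229, 0.739 and 0.784 CPM in T98G, and 0.345 and 0.376 CPM in U251. Ratios were 1.01 (0.884 to 1.15), 1.06 (0.727 to 1.55) and 1.09 (0.622 to 1.91), and the mean change was 0.03 ± 0.02 (SD, n = 3). Relative to the median gene of T98G the change there was 0.23. The intervals reach at least from 0.884 to 1.15, and a change within them was not detectable at this depth.

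**Figure D3:**
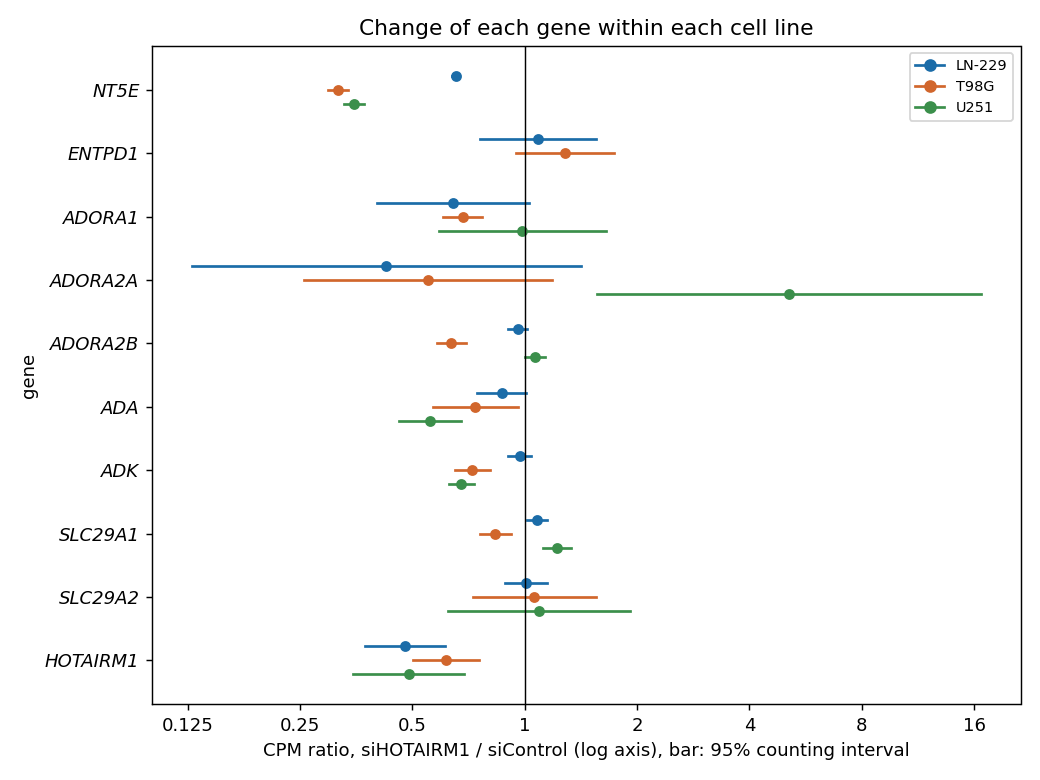
Ratio of siHOTAIRM1 to siControl CPM (log axis) for each gene and HOTAIRM1 in each cell line, with 95% intervals for counting error and a line at 1 (no ratio is drawn for ENTPD1 in U251). NT5E lies at 0.653, 0.316 and 0.349 in LN-229, T98G and U251, and SLC29A2 has 1 inside all 3 intervals.

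Levels of different genes were set side by side as CPM per kb of the canonical transcript. In LN-229 NT5E led with 54.4 CPM per kb in siControl and 35.5 in siHOTAIRM1, followed by ADORA2B (14.7 and 14.04), SLC29A1 (10.3 and 11.2) and ADK (8.22 and 7.97). In T98G siControl NT5E again led, with 15.5 CPM per kb against 11.3 for ADORA2B, and after knock-down ADORA2B (7.21) and SLC29A1 (5.25) stood above NT5E (4.89). In U251, ADORA2B was above NT5E in siControl (19.9 against 13.8 CPM per kb) and in siHOTAIRM1 (21.2 against 4.82). In U251 siHOTAIRM1, SLC29A1 (8.13) and ADK (7.64) also stood above NT5E. The order of these 4 genes thus differed between siControl and siHOTAIRM1 in T98G and U251 and was the same in LN-229. ENTPD1 was at 0.108 CPM per kb or less in each library, below NT5E in all 6. Dividing by the union of all exons, which is longer for each of the 9 genes, turned part of this order: SLC29A1 (2.54) then stood below NT5E (3.84) in T98G siHOTAIRM1, and ADK (3.27) below NT5E (3.79) in U251 siHOTAIRM1. ADORA2B stayed above NT5E in both (4.69 and 13.8).

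Cell line differences were not used to choose these genes and were tested. However, ADORA1 passed the filter only through T98G and SLC29A2 only through LN-229, so their calls against these lines are partly set by the filter. The 2 libraries of a line differ in siPOOL. The fit leaves 2 residual degrees of freedom, and limma added 32.5 prior degrees of freedom taken from all genes. The SEs and p-values thus rest mostly on the spread over all genes, not on the libraries of a line. In T98G against LN-229, 7 of 7 genes passed an adjusted p of 0.05, where 54.9% of all genes did. In U251 against LN-229 it was 4 of 7 (60.6% of all genes), and in U251 against T98G 5 of 7 (64.2%). The cell lines differ at most genes, and these counts are to be read against those shares.

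NT5E was higher in LN-229 than in the other lines. On the log2(CPM + 1) scale, T98G minus LN-229 was -2.29 (SE 0.20, limma adjusted p = 1.91e-12) and U251 minus LN-229 -2.38 (SE 0.20, limma adjusted p = 7.1e-13). U251 minus T98G was -0.09 (SE 0.20, limma adjusted p = 0.711), so the difference between these neighbours in the order did not pass the threshold. In CPM, LN-229 held 3.52-fold the NT5E of T98G in siControl and 7.26-fold in siHOTAIRM1. Against U251 the same values were 3.93-fold and 7.37-fold. When all 59074 genes were fitted without the filter, 11 of the 16 differences between lines that passed for these genes were lost, both of NT5E among them. Calls over all genes fell too, from 7851 to 4317 for T98G against LN-229 and from 8664 to 3804 for U251 against LN-229. For U251 against T98G they fell from 9170 to 3923.

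SLC29A2 was also highest in LN-229. It differed by -1.71 for T98G minus LN-229 (SE 0.15, limma adjusted p = 1.99e-12), by -2.09 for U251 minus LN-229 (SE 0.15, limma adjusted p = 9.91e-15) and by -0.37 for U251 minus T98G (SE 0.15, limma adjusted p = 0.0270), the last of which was lost without the trend. For ADORA1 it was T98G that stood apart: T98G minus LN-229 was 2.60 (SE 0.15, limma adjusted p = 7.55e-17) and U251 minus T98G -2.56 (SE 0.15, limma adjusted p = 1.43e-16). Its LN-229 and U251 levels differed by 0.04 (SE 0.15, limma adjusted p = 0.841). Outside T98G, ADORA1 was below 1 CPM in each library, as was SLC29A2 outside LN-229. Each gene thus passed the filter through the line where it was high, and the p-values against that line are no support for its height there.

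ADORA2B was lowest in T98G, by -0.63 against LN-229 (SE 0.18, limma adjusted p = 0.00388) and by -0.35 between the siControl libraries alone, and U251 exceeded T98G by 1.12 (SE 0.18, limma adjusted p = 2.05e-06). U251 exceeded LN-229 by 0.50 (SE 0.18, limma adjusted p = 0.0187), a difference that no longer passed after centring on the median gene (0.37) or scaling to protein-coding genes (0.24). ADK was lowest in T98G too: T98G minus LN-229 was -0.76 (SE 0.18, limma adjusted p = 0.000519) and U251 minus T98G 0.94 (SE 0.18, limma adjusted p = 2.28e-05), whereas U251 minus LN-229 was 0.19 (SE 0.18, limma adjusted p = 0.372). SLC29A1 was highest in LN-229, with -0.85 for T98G (SE 0.18, limma adjusted p = 0.000126) and -0.52 for U251 (SE 0.18, limma adjusted p = 0.0121). For ADA, T98G minus LN-229 was -0.77 (SE 0.16, limma adjusted p = 0.000156), and U251 minus T98G was 0.57 (SE 0.16, limma adjusted p = 0.00317) and failed the threshold when centred or scaled (0.36 each). U251 minus LN-229 was -0.20 for ADA (SE 0.16, limma adjusted p = 0.290), and it passed after scaling to protein-coding genes (-0.41, limma adjusted p = 0.0422), whereas the siControl libraries alone gave 0.027. U251 minus LN-229 of ADK was 0.43 between the siControl libraries, where both conditions gave 0.19. By CPM alone, T98G held the lowest level of ADORA2B, ADA and ADK and the highest of ADORA1 in both conditions. For ADORA1 this is a description without support from the p-values, and for ADA the difference from U251 depended on the scaling.

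Beyond the 9 genes, 99 genes of ATP and adenosine biology were listed by function, and 64 passed the filter: ATP release channels, other surface and internal nucleotidases, other purine receptors and transporters, purine enzymes, G protein and cAMP signalling, cAMP response genes and surface markers that go with CD73. On knock-down 1 of the 64 was higher at an adjusted p of 0.05 and 0 were lower in the limma fit, where 0.413% of all genes were higher and 1.59% lower. At an unadjusted p under 0.05 there were 14 of the 64 (21.9%; 7 higher and 7 lower), beside 2622 of all 14294 genes (18.3%). The median change was -0.06 on the log2(CPM + 1) scale, beside -0.07 over all 14294 genes. The medians of the lists with at least 2 tested genes ran from -0.13 (surface nucleotidases, internal nucleotidases, purine enzymes and surface markers) to 0.03 (cAMP response genes).

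The gene past the threshold was SLC29A4, a membrane transporter of monoamines that also carries adenosine. It was measured at 0.249 and 0.375 CPM in LN-229, 3.07 and 5.20 CPM in T98G, and 0.268 and 0.968 CPM in U251. Outside T98G it was below 1 CPM in each library, so it passed the filter through T98G, and its counting intervals were not computed. Each siHOTAIRM1 library lay above its siControl, with a mean change of 0.46 (SE 0.12, limma adjusted p = 0.0434, Benjamini-Hochberg over all genes). The call was lost without the T98G libraries (0.39) or the U251 libraries (0.37), after centring (0.54) and after scaling to protein-coding genes (0.53), and it was also lost without the filter, the cell line block or the trend.

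Other genes of the lists did not pass. ENPP1, a surface enzyme that releases AMP from ATP, was 16.7 and 15.4 CPM in LN-229, 5.502 and 4.58 CPM in T98G, and 20.4 and 11.1 CPM in U251, with a mean change of -0.39 (adjusted p = 0.164 in limma). Of the 10 other surface nucleotidases, 2 were above the filter, ENPP1 and ACPP, where 14294 of all 59074 listed genes were. PNP, the next enzyme after ADA in the breakdown of adenosine, was 5.36 and 4.75 CPM, 12.003 and 7.64 CPM, and 31.003 and 17.2 CPM in LN-229, T98G and U251, with a mean change of -0.51 (adjusted p = 0.0617 in limma). AHCYL1, an AHCY-like protein, had a mean change of -0.47 (adjusted p = 0.0813 in limma). P2RY11, a nucleotide receptor, and PER1, a clock gene that cAMP induces, had mean changes in the other direction, of 0.37 (adjusted p = 0.123 in limma) and 0.33 (adjusted p = 0.198 in limma), with a higher level in each siHOTAIRM1 library. CREM, from the same list of cAMP response genes as PER1, was lower in each siHOTAIRM1 library. Its mean change was -0.38 (adjusted p = 0.140 in limma), and the median of that list was 0.03. ENPP1, ACPP, PNP, AHCYL1, P2RY11, PER1 and CREM were named after their values were seen.

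**Figure D4:**
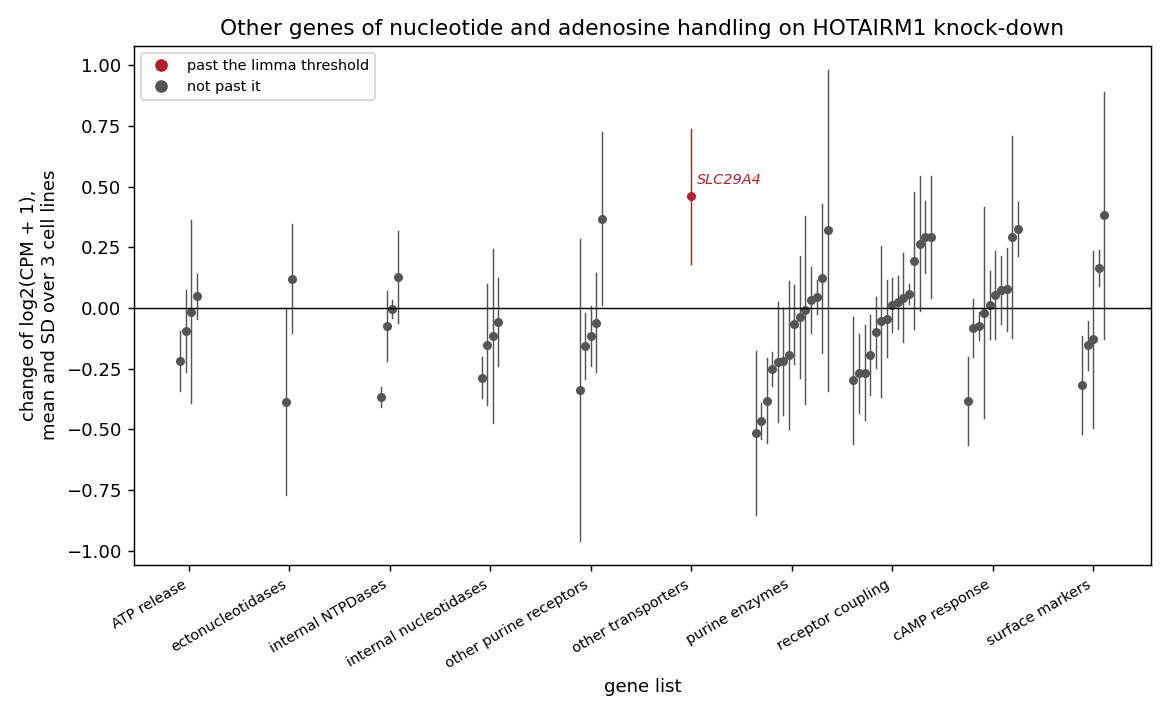
Mean change of log2(CPM + 1) over the 3 cell lines for each tested gene of the functional lists, with bars for the SD over the lines. SLC29A4, at 0.46, is drawn in red as the gene past the limma threshold, and the other genes lie between -0.51 and 0.38.

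The genes whose level followed NT5E most closely over the 6 libraries were AP4B1, a subunit of an adaptor complex of vesicle transport (Pearson r = 0.996), CHPT1, an enzyme of phosphatidylcholine synthesis (0.995), CRNKL1, a splicing factor (0.992), RP11-206L10.9 (0.9904) and POLR3F, a subunit of RNA polymerase III (0.9904). These values are a description over 6 libraries from 3 cell lines, which share a line in pairs. Of 14293 genes compared, 92 had an r of at least 0.95. Their range was much narrower than that of NT5E: AP4B1 went from 17.4 to 15.998 CPM in LN-229, 13.7 to 11.4 in T98G and 13.99 to 11.6 in U251, and CHPT1 from 37.0 to 31.3, 23.0 to 16.9 and 22.03 to 15.8. Among the genes of adenosine handling r was highest for SLC29A2 (0.845), ADA (0.744) and SLC29A1 (0.733), and lowest for ADORA1 (-0.36). HOTAIRM1 had an r of 0.153 with NT5E over the same libraries. These r values take in level differences between lines. NT5E was highest in LN-229 and HOTAIRM1 in T98G, while both were lower after knock-down in each line. SLC29A2 was also highest in LN-229 but differed by only 0.01 to 0.04 on knock-down on the log2(CPM + 1) scale.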

How the data were processed

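RNA-seq was examined in 6 libraries, 1 for each of LN-229, T98G and U251 with siControl or siHOTAIRM1. The authors aligned reads to hg38 with STAR 2.4.1d in Partek Flow, quantified genes by an Expectation-Maximization algorithm, and deposited CPM with 0.0001 added to each value. The deposited CPM sum to 42.9 to 67.2% of the full CPM scale per library, so the authors' total also counted reads outside these genes. Steps between low values gave 52.3 to 104 M reads per library. Of the values, 76.7 to 80.4% were within 0.05 of a whole number of reads, so no count test was used. Intervals and the 3-read limit cover counting error only.

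Changes are differences of log2(CPM + 1). Genes averaging 1 CPM or more were fitted in limma 3.58.1, run in R 4.3.3, using cell line as block, a mean-variance trend and Benjamini-Hochberg adjustment. Libraries of a cell line are pairs by design. Their deviations from the mean of each condition correlated at 0.948 to 0.967 within lines and -0.505 to -0.467 between lines. With 3 lines per condition, the negative values between lines follow from subtracting that mean. The values within lines restate that the cell lines differ, so neither tests the pairing. Nothing states that libraries came from repeated cultures. The fit was tested on simulated data. Python 3.11.15 was used for the other steps. Named genes were the 9 genes, HOTAIRM1, listed pathway genes past the threshold, the 5 genes most like NT5E and the markers. Outside this rule, some pathway genes were named after their values were seen. The members and lists were chosen with earlier results of these data known. Alternatives were the pseudocount, the filter, the block, the trend, centring on the median gene, scaling to protein-coding genes, exon length and leaving out each cell line. The centring and scaling of counts within lines were added after seeing the data. Positions come from GENCODE v44.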

Additional observations from a re-analysis of the deposited data

Results flagged for a closer look

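The change of ADORA2B went in opposite directions in 2 cell lines: 0.088 on the log2(CPM + 1) scale in U251 and -0.61 in T98G. The change of SLC29A1 was 0.11 in LN-229 and 0.27 in U251 and -0.24 in T98G. With 1 library per cell line and condition, these differences between lines were not tested. The median of all genes in T98G was -0.19, and relative to it the T98G change was -0.42 for ADORA2B and -0.05 for SLC29A1.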

How the results depend on the processing

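The fall of NT5E kept its direction under every setting, from -1.54 to -1.04 when 1 cell line was left out, and was -1.26 with a pseudocount of 0.1, -1.15 centred on the median gene and -1.12 scaled to protein-coding genes. The number of genes past the threshold on knock-down (286) was not stable: it was 683 with a pseudocount of 0.1, 185 without the trend and 41 after centring. It was 0 without the filter (2153 genes at an unadjusted p under 0.05 in limma) and 0 after scaling to protein-coding genes (2576). Leaving out a cell line gave 0 to 270 genes: 0 without T98G (1206 at an unadjusted p under 0.05), 149 without U251 and 270 without LN-229. Pathway genes past the threshold (1) numbered 3 with the smaller pseudocount, 0 without the filter, 0 centred, 0 scaled and 0 without the trend, with 11 to 15 at an unadjusted p under 0.05, and 0 to 1 when a line was left out. The cause was not tested.

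Without the cell line block, which sets aside the pairing of libraries by line, 0 genes (29 at an unadjusted p under 0.05) and 0 pathway genes passed, and the NT5E change stayed at -1.23. Without the filter, genes differing between lines numbered 4317 (T98G against LN-229), 3804 (U251 against LN-229) and 3923 (U251 against T98G). With it they numbered 7851, 8664 and 9170. Of the 16 line differences that passed for the 7 genes, 11 were lost without the filter, those of NT5E included. The ADA difference of U251 from LN-229 passed only after scaling (-0.41). The difference of SLC29A2 between U251 and T98G was lost without the trend.

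ADORA1 in U251 minus LN-229 turned from 0.04 to -0.087 centred and -0.035 scaled, and ADK turned from 0.19 to -0.063 scaled; none of these passed. Between siControl libraries alone, ADORA2B in T98G minus LN-229 was -0.35, against -0.63. Mean levels per kb of all exons were 0.222 (ADA), 3.16 (ADK) and 3.86 (SLC29A1) CPM, against 1.81, 7.40 and 7.97 per kb of the canonical transcript. Of the 5 genes most like NT5E, 0 were among the first 5 when values were centred on the line mean, and 2 with Spearman's rho. Their r centred on the line mean was still 0.979 to 0.996, but 409 genes reached at least 0.99 there. With Spearman's rho, 62 genes tied at 1. Which 5 genes come first therefore says little about the likeness itself. Genes past 0.5 in T98G numbered 588 centred and 614 scaled, against 1272.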
